A study of Mus musculus with 2 samples.

Results

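The keratin genes of the mouse are described here by the chromatin open to DNase I in the embryonic limb. The members are all protein-coding genes of the GENCODE M21 annotation whose symbol is Krt followed by digits, with or without a final letter, and number 53 of 21938. Of them 28 are type I and 25 type II keratins, and 27 lie on chromosome 11 and 26 on chromosome 15, because Krt18, a type I keratin, sits beside Krt8 in the type II cluster. The data are DNase-seq, in which nuclei are treated with the enzyme and the cut ends are sequenced, from the whole limb of B6NCrl embryos at day 14.5 with both sexes pooled. There is 1 group, with 2 replicates that the labels call biological but that carry the same donor identifier, so spread between them may be technical. A peak is a 150-bp region called in 1 library, and its signal is a whole number in the authors' own unit. A peak of replicate 1 is called shared where a peak of replicate 2 covers at least 50% of it. A gene has an open start where a shared peak lies within 500 bp of any annotated transcription start site (TSS).

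Keratins build the intermediate filaments of epithelial cells, and each filament pairs a type I with a type II protein. Simple epithelia and the periderm use Krt8, Krt18, Krt19 and Krt7. The basal cells of stratified epidermis use Krt5 with Krt14 and Krt15, and cells that leave the basal layer switch to Krt1 and Krt10. Krt6, Krt16 and Krt17 mark activated epidermis and appendages, and the root sheath and the shaft of the hair have keratins of their own. A limb at this stage is mostly mesenchyme beneath a thin epidermis in which stratification has begun. With a single group the data allow no comparison between conditions, and the members were set beside all protein-coding genes as a description.

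Most protein-coding genes of any kind, 65.1%, had an open start. All of the 7 marker genes of limb mesenchyme and all of the 6 of surface epithelium had one, among the latter Trp63, Epcam and Cdh1. Open starts were also found at the muscle genes Myod1 and Myog, at the cartilage genes Sox9 and Col2a1, at 1 of 3 endothelial markers, at 1 of 2 Schwann cell and melanocyte markers, at Atoh1 of Merkel cells and at none of 3 blood markers. Outside the mitochondrial and unplaced sequence, replicate 1 has 208674 peaks with a median signal of 42, and replicate 2 has 196593 with a median of 31. The 2 libraries share 127632 peaks. Read depth is unknown, so a start without a peak is one where none was called. In whole limb, few cells with open chromatin and weak opening in many cells cannot be told apart.

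The sequences below carry the main observations. Each is 150 bp of GRCm38 (mm10), read on the strand of the gene it was given to, which is the minus strand for every one printed. Capitals mark a match to a searched motif. First come the start of Krt5, as the basal keratin with a shared peak at its only annotated start, and that of Krt17, with a TATA box.
Krt5 start, chr15:101712936-101713085: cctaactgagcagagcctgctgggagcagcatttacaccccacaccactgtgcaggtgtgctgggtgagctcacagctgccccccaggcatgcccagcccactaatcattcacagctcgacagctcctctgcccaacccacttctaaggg
Krt17 start, chr11:100261036-100261185, capitals TEAD then TATA box: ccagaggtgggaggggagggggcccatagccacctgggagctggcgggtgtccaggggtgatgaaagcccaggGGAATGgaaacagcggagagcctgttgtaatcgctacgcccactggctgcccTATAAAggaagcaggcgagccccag
Next come the coding-exon peaks of Krt10 and Krt1, shown for their high GC content and distance from the outermost start.
Krt10 exon, chr11:99385996-99386145: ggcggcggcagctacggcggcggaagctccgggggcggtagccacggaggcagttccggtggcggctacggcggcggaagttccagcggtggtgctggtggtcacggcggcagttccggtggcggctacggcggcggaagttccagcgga
Krt1 exon, chr15:101846036-101846185: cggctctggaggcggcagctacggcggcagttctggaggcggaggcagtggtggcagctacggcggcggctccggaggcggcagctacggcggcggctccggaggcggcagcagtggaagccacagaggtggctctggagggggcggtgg
The strongest shared peak of each class follows, by mean signal percentile. All except that of Krt80 are distal, over 1 kb from every protein-coding TSS. Those of Krt12 and Krt33a lie 8.7 and 8.9 kb downstream of the start, so the TATA box printed for Krt33a is not at its start.
Krt8, simple, chr15:101984376-101984525, capitals CTCF core then TEAD: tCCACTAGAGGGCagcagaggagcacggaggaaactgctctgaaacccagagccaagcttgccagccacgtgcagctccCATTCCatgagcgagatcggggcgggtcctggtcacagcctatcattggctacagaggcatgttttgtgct
Krt14, basal, chr11:100203576-100203725: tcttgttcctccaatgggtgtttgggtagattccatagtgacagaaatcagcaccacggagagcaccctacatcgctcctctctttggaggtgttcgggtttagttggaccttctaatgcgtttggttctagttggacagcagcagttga
Krt78, suprabasal, chr15:101977456-101977605, capitals AP-1: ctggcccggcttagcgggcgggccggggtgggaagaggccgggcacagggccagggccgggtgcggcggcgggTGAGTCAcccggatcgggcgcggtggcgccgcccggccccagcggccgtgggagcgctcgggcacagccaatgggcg
Krt12, mucosa and cornea, chr11:99413416-99413565, capitals CTCF core: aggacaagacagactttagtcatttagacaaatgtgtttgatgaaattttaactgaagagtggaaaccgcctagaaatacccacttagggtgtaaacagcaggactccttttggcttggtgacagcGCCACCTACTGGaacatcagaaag
Krt42, activated and appendage, chr11:100282076-100282225: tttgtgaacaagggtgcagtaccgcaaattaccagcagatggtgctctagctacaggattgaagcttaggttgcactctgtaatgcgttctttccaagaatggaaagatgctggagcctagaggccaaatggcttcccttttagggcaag
Krt72, root sheath, chr15:101772816-101772965: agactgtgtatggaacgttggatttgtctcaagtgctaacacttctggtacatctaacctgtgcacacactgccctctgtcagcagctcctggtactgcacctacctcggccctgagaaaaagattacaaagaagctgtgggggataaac
Krt33a, hair shaft, chr11:100004936-100005085, capitals TATA box: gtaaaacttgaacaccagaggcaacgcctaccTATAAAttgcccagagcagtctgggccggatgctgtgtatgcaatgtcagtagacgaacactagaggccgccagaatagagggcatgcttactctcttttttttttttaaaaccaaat
Krt80, other, chr15:101370436-101370585, capitals AP-2: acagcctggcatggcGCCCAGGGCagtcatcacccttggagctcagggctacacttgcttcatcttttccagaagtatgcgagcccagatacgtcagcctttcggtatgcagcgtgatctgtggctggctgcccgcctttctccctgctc

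Few keratin genes had an open start. The 9 that did were Krt5 and Krt15 of the basal class, Krt7 of the simple class, Krt1 and Krt10 of the suprabasal class, Krt17, the hair keratin Krt86, and Krt80 and Krt222 among the rest. They make up 17% of the 53 members (95% Wilson interval 9.2% to 29.2%), where 65.1% of all protein-coding genes have an open start. A TSS peak was called at 14 keratin genes in replicate 1 and at 14 in replicate 2, against 69.4% and 68.2% of all genes. In each replicate 20 peaks lay at keratin starts, 10 of them shared. Of the replicate 1 peaks that is 50% (95% Wilson interval 29.9% to 70.1%), beside 70.8% of the TSS peaks of all genes. This interval counts each peak as separate, although some lie at the same gene. A total of 36 members had no TSS peak in either replicate. Of the 17 with one, 11 had a peak in each replicate, 3 in replicate 1 alone (Krt19, Krt24 and Krt39) and 3 in replicate 2 alone (Krt18, Krt75 and Krt72). Of the 11, only Krt14 and Krt87 lacked a shared peak. Over all protein-coding genes, 15526 had a TSS peak in either replicate and 14651 of them had one in each.

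**Figure D1:**
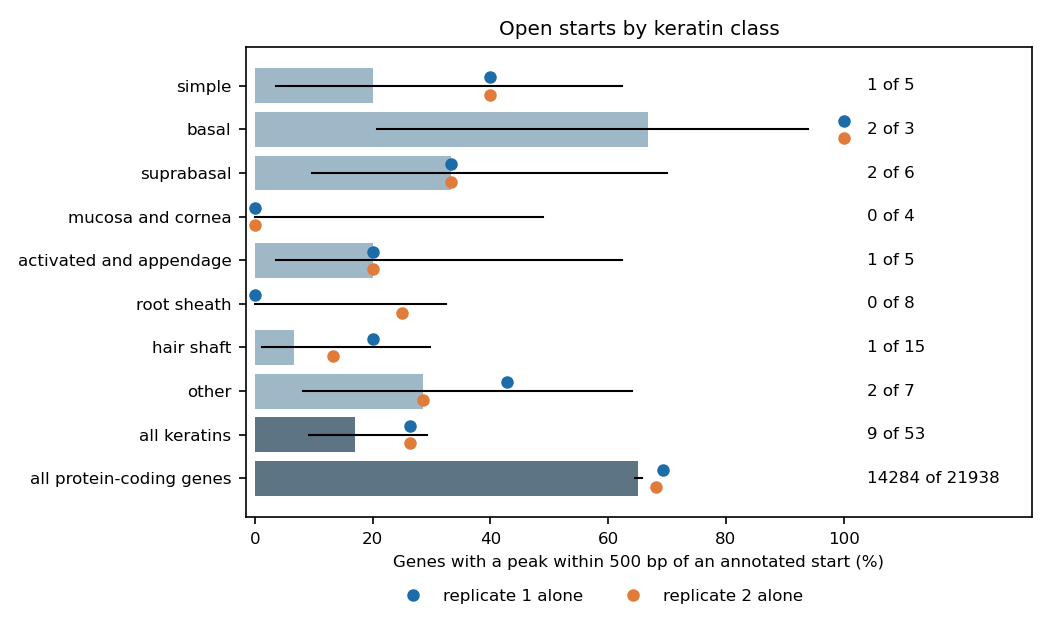
Share of genes in each keratin class with an open start (bars, peaks shared by both replicates; lines, 95% Wilson intervals), with dots for each replicate alone and the number of open genes at the right. Basal keratins have 2 open of 3 and hair shaft keratins 1 of 15, and the 53 keratins together have 9 open.

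The open keratin starts were mostly of low to middling signal. The signal percentile ranks a peak among all peaks of its own library, and the mean of both libraries had a median of 60.7 over the 10 shared keratin TSS peaks, against 89.3 over the 23480 shared TSS peaks of all genes. Just inside the 500-bp limit is the shared peak of Krt1, 409 bp from a start, and just outside are shared peaks of Krt80, Krt87 and Krt88 at 602, 759 and 899 bp.

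Among the simple keratins, 1 of 5 had an open start. Krt7, a keratin of ducts and simple epithelia, had a shared peak 38 bp upstream of its outermost start, with a signal of 43 in replicate 1 (percentile 52.7) and 37 in replicate 2 (percentile 63). Krt19, found in periderm and simple epithelia, had peaks in replicate 1 only, with signals of 38 and 39. Krt18, the type I partner of Krt8, had a peak over its start in replicate 2 only, with a signal of 29. Replicate 2 also has a run of 5 peaks between 1.7 and 4.0 kb upstream of Krt18, with signals of 14 to 37, none of which was called in replicate 1. Krt8, the main type II keratin of simple epithelia, and Krt20, a keratin of gut epithelium, had no TSS peak in either library. So the partners Krt8 and Krt18 both lacked an open start. All 6 markers of surface epithelium had one. So did 8 of 11 genes of desmosomes and keratin linkers, but Pkp1, Ppl and Eppk1 did not.

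Of the 3 basal keratins, all had a TSS peak in each replicate and 2 had a shared one (66.7%, 95% Wilson interval 20.8% to 93.9%), a share near the 65.1% of all genes. Among the 50000 peaks of highest signal in each library, no basal keratin and 1 suprabasal keratin had a shared TSS peak. So did 1 hair shaft keratin and 1 keratin outside the named classes, beside 55.3% of all genes. Krt5, the type II keratin of basal cells, had signals of 41 (percentile 49) and 38 (percentile 64.7) in replicates 1 and 2, with the peak printed above lying just upstream of its only annotated start. Krt15, a type I basal keratin, had signals of 34 (percentile 33.1) and 28 (percentile 41.7) with the replicate 1 peak 248 bp upstream. Both genes thus sat between percentiles 33.1 and 64.7. Krt14, the partner of Krt5, had its replicate 2 peaks at the outermost start, a pair that overlap each other and have signals of 29 and 28. In replicate 1 its single peak, with a signal of 27, lay 1343 bp away in an intron, beside an internal annotated start. Hotspots, the usually broader regions the authors called, lay within 500 bp of a start of Krt14 in both replicates but not at the same one. In replicate 1 the hotspot was at the internal start and in replicate 2 at the outermost start.

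Among the suprabasal keratins, 2 of 6 counted as open, and both did so only through internal annotated starts. Krt10, the type I keratin of the spinous layers, had the strongest of all keratin TSS peaks by mean percentile save that of Krt80. Its first shared peak had signals of 114 (percentile 95.8) and 81 (percentile 94.2), and its second had 99 (percentile 92.8) and 50 (percentile 79.7). Both lay in a hotspot at the ceiling of the −log10 q scale, 100, in each replicate. That ceiling was reached by 33% of all hotspots in replicate 1 and by 28.8% in replicate 2. Both shared peaks lie 3219 and 2759 bp from the outermost start of Krt10, over and beside an internal start in the 3′ part of the gene. No peak was called within 500 bp of the outermost start. The first peak covers a coding exon, with 74% GC and 22 CpG dinucleotides, as the printed sequence shows. Krt1, the type II partner of Krt10, repeats this arrangement. Its shared peak, with signals of 54 and 35, lies in a coding exon 4609 bp from the outermost start, and has 74.7% GC and 16 CpGs. At the outermost start of Krt1 itself replicate 1 has a peak with a signal of 24 (percentile 8.25) and replicate 2 has none. Counting only outermost starts left 7 open keratins, against 59.1% of all genes, and 0 of 6 in the suprabasal class. Krt2, Krt9, Krt77 and Krt78 had no TSS peak in either replicate.

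**Figure D2:**
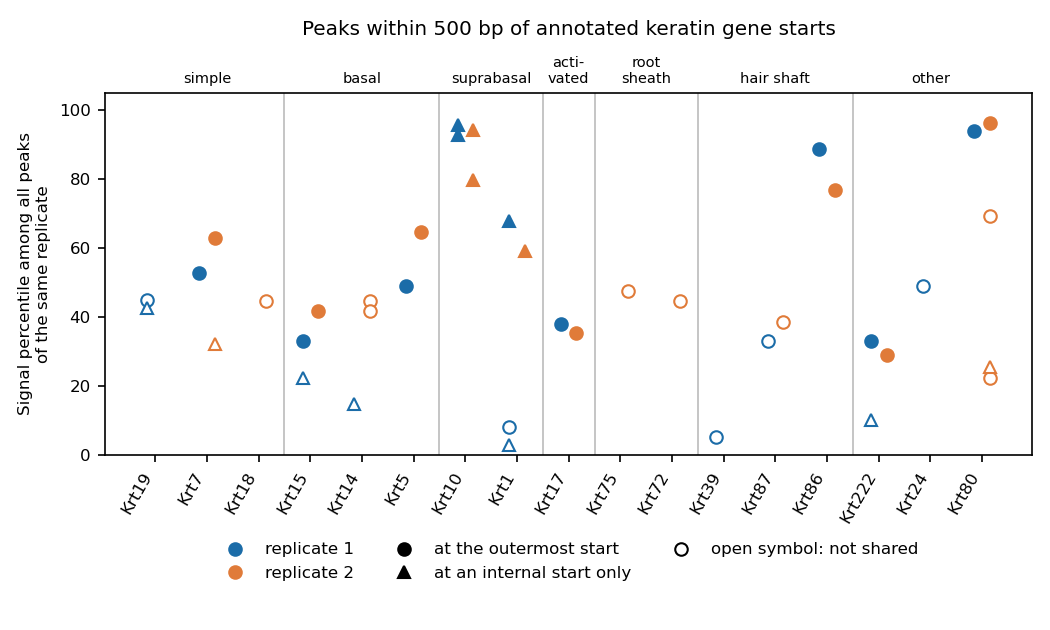
Signal percentile, within its own replicate, of every peak within 500 bp of an annotated keratin start, by gene and class; filled symbols are shared peaks and triangles lie near an internal start only. Both peaks of Krt10 and the shared peak of Krt1 are triangles, and most other genes lie below percentile 70, with Krt80 and Krt86 above it.

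Of the activated and appendage keratins, Krt17 alone had an open start. This type I keratin marks early epidermis and budding appendages, and its peak was called at the same place in both libraries, with signals of 36 (percentile 38) and 26 (percentile 35.5). Read on the strand of the gene, the 150 bp end 7 bp upstream of the start. They hold a TATA box in the sense direction, 31 to 26 bases upstream of the start. Krt6a, Krt6b, Krt16 and Krt42 had no TSS peak in either replicate.

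Few keratins of the hair had a TSS peak. In 7 of the 15 hair shaft keratins, Krt31, Krt33a, Krt33b, Krt34, Krt81, Krt83 and Krt86, under 80% of the 36-base words of the start windows occur once in the genome. No root sheath keratin of 8 had a shared TSS peak. Krt75, of the companion layer, and Krt72, of the inner root sheath, had peaks in replicate 2 only, with signals of 30 and 29, and Krt25, Krt26, Krt27, Krt28, Krt71 and Krt73 had none. Of 15 hair shaft keratins, Krt86 had the only open start. Its peak, 253 bp upstream, had signals of 86 (percentile 88.6) and 47 (percentile 76.8) and holds an AP-1 site. Krt87 had a peak over its start in each replicate, with signals of 34 and 27, but they overlap by 30 bp and did not count as shared. Krt39 had a peak in replicate 1 only, with a signal of 22. Krt31, Krt32, Krt33a, Krt33b, Krt34, Krt35, Krt36, Krt40, Krt81, Krt82, Krt83 and Krt84 had no TSS peak in either replicate. Nor had the mucosal and corneal keratins Krt4, Krt12, Krt13 and Krt76.

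Among the 7 members outside these classes, Krt80 and Krt222 were open. Krt80 had the strongest shared keratin TSS peak, at signals of 103 (percentile 93.8) and 93 (percentile 96.3), 274 bp upstream of its outermost start. Replicate 2 adds 3 peaks at Krt80 starts that replicate 1 lacks. Krt222 had signals of 34 and 24 over its 5′ end. Krt24 had a peak in replicate 1 only, with a signal of 41, and Krt23, Krt79, Krt88 and Krt90 had no TSS peak.

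Most keratin starts are poor in CpG. CpG content, the number of CpGs within 500 bp of a start over the number its C and G bases would give, was taken at the start where it was highest, and its median was 0.35 for keratins and 0.63 for all genes. Under 0.35, 4 of 26 keratins had an open start (15.4%, 95% Wilson interval 6.15% to 33.5%), beside 13.5% of all genes of that content. These were Krt5, Krt15, Krt17 and Krt80. Between 0.35 and 0.6, again 4 of 26 were open, Krt1, Krt7, Krt86 and Krt222, beside 67.6% of all genes. Of these Krt7 is in this range only through an internal start (0.58), and it has 0.08 at its outermost start, where its shared peak lies. The same holds for Krt14, Krt19 and Krt42, which were not open, with 0.29, 0.23 and 0.29 at their outermost starts. Krt10 is the only keratin above 0.6, with 1.01 at its internal start and 0.35 at its outermost one. With each gene placed by its highest start, keratins of the low range thus had a share of open starts near that of all genes, and those of the middle range a lower one.

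Near-identical paralogs could also leave reads unplaced at some starts. The share of 36-base words found once in the genome fell to between 65% and 79.4% in the start windows of 12 keratins, among them Krt6a, Krt6b, Krt16, Krt8, Krt81 and Krt33a. Of these 12 only Krt86 had an open start, and 8 of the other 41 had one (19.5%). How the authors treated reads with several matches is not given in the sources used here, and the part of this in the missing peaks was not tested.

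Away from their starts the keratins did not lack open chromatin. A peak is distal where no protein-coding TSS lies within 1 kb, and it is given to the nearest such TSS up to 100 kb away. Replicate 1 has 125 such peaks at keratins and replicate 2 has 121, of which 82 are shared. At least 1 shared distal peak was given to 36 of 53 keratins (67.9%), beside 64.5% of all protein-coding genes. The mean was 1.55 a gene against 3.43 over all genes, and the median 1 in both. Keratin genes lie close together, so the sequence nearest to each, its territory, is small. Per 100 kb of territory there were 7.49 shared distal peaks for keratins and 4.76 for all genes. No distance exceeded 35.3 kb, and the median was 8.8 kb. Their mean signal percentile had a median of 56.9, against 61.4 over all 75329 shared distal peaks.

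Shared distal peaks were densest for the simple keratins, with 19 peaks or 12 per 100 kb of territory. The suprabasal class had 13 (9.34 per 100 kb), the basal class 3 (5.38) and the hair shaft class 11 (5.26). Of the 13 suprabasal peaks, 6 were given to Krt78 and lie between Krt78 and Krt8. Some of the simple keratin peaks, given to Krt8, lie in the same interval. The basal value rests on few shared peaks, since Krt5, Krt14 and Krt15 together had 6 distal peaks in replicate 1 and 8 in replicate 2. The mucosal and corneal class was lowest, with 2 (2.63 per 100 kb), the root sheath class had 10 (5.77), the activated class 6 (6.36) and the remaining members 18 (9.51).

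**Figure D3:**
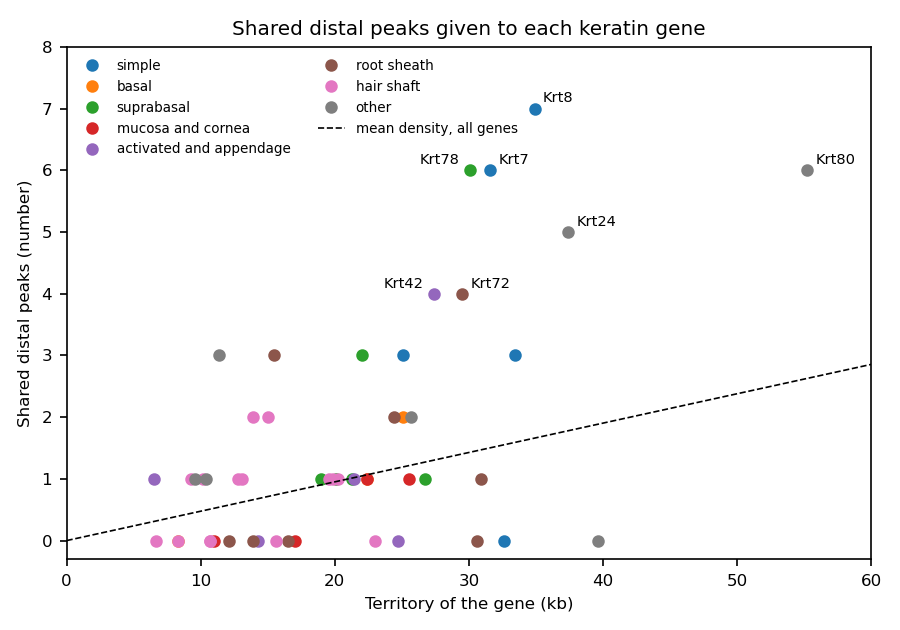
Shared distal peaks given to each of the 53 keratin genes (points, coloured by class) against the territory of the gene in kb; the dashed line is the mean density over all protein-coding genes, 4.76 per 100 kb. Krt8, Krt7, Krt78 and Krt80 have 6 or 7 peaks and lie above the line, and the genes at 0 include Krt18.

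Krt8 had the most, 7 shared distal peaks, although its start had none. Krt7, Krt78 and Krt80 had 6 each, Krt24 had 5, and Krt42 and Krt72 had 4 each. With 3 each came Krt19, Krt20, Krt28, Krt79 and Krt1. Krt14 had 2, and Krt5, Krt2, Krt9, Krt10, Krt77 and Krt17 had 1 each. Krt15 had none shared, and Krt18 had 2 in replicate 1 and 5 in replicate 2 with none shared. No peak of any kind was given to Krt4, Krt13, Krt26, Krt27 or Krt35 in either replicate. The remaining members had 0 to 2 shared distal peaks each. These numbers count starts of protein-coding genes only. With starts of every gene type, all shared distal peaks of Krt80 were nearest the antisense gene Gm35853. All of those of Krt42 were nearest the antisense gene Gm14206. Some of those of Krt7 and Krt72 were nearest pseudogenes, and some of Krt8, its strongest included, nearest the lincRNA Gm36026. Those of Krt24 and Krt78 stayed with these genes.

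The strongest distal peaks gathered between Krt78 and Krt8. This interval, chr15:101954288-101996697, was singled out after its peaks were seen. It spans 42.4 kb, and no annotated gene of any type overlaps it. It holds 10 peaks in each replicate, 9 of them shared, or 21.2 shared peaks per 100 kb. Of the 5 distal keratin peaks with the highest mean percentile, 4 lie here, and their median over the 9 is 89.5. The strongest, 19957 bp downstream of the Krt8 start, had signals of 118 (percentile 96.5) and 111 (percentile 98.8). The second, 23.2 kb upstream of Krt78, had signals of 123 and 86 and is 81.3% GC with 21 CpGs and an AP-1 site. The third had signals of 109 and 73, 19.5 kb upstream of Krt78, and the fifth 95 and 68, 16.1 kb downstream of Krt8. Which of the neighbours, if any, these peaks act on was not tested.

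The fourth lies in an intron of Krt14, at chr11:100203576-100203725, 2.3 kb downstream of the start. Its signals were 102 (percentile 93.6) and 68 (percentile 90.5), above every TSS peak of the basal keratins in both replicates. Other strong shared peaks were found 24.8 kb downstream of Krt80 (92 and 63), 5.7 kb downstream of Krt72 (94 and 58) and 12.2 kb upstream of Krt42 (81 and 67). Upstream of Krt20, the peak at 25.1 kb had signals of 87 and 51, and that at 26.7 kb 88 and 46. Upstream of Krt19, 3 shared peaks lay 19.5 to 20.8 kb from the start.

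The clusters differed in how densely they were open. The type II cluster runs from Krt80 to Krt18, chr15:101347444-102032027, and holds 90 peaks in replicate 1, 92 in replicate 2 and 52 shared, or 7.6 shared per 100 kb against 5.13 over chromosome 15. The type I cluster, chr11:99232761-100269871, holds 66, 54 and 41, or 3.95 shared per 100 kb against 6.85 over chromosome 11. Within it a stretch of 443.9 kb carries genes of keratin-associated proteins, which cross-link the filaments of hair, and has 6 shared peaks, 1.35 per 100 kb. On either side of that stretch the density was 6.77 from Krt222 to Krt40, 3.18 over the hair keratins from Krt33a to Krt36 and 5.9 from Krt13 to Krt42. In the type II cluster it was 12.1 from Krt80 to Krt7, 11.3 from Krt8 to Krt18, 7.7 over the hair keratins from Krt87 to Krt75, 6.35 from Krt71 to Krt78 and 2.71 from Krt6b to Krt5. In shared peaks the parts of the type II cluster with Krt7 and Krt8 were thus denser than the part with hair keratins. In replicate 2 alone the order was the same, with 22.9 and 36.8 against 10.5 per 100 kb. In replicate 1 alone it was not, with 14.5 from Krt80 to Krt7, 17 from Krt8 to Krt18 and 16.1 over the hair keratins. From Krt8 to Krt18 the replicates differed, with 6 peaks in replicate 1 and 13 in replicate 2.

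**Figure D4:**
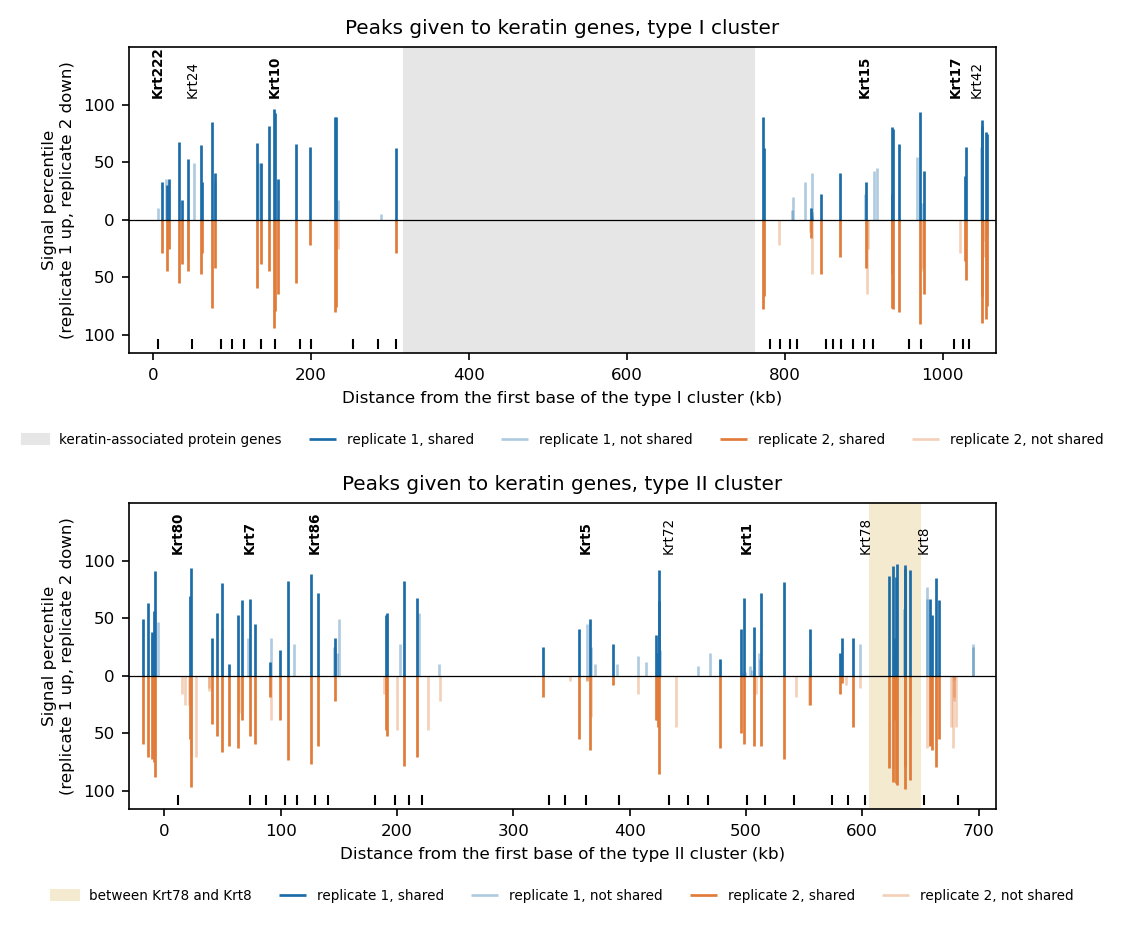
Peaks given to keratin genes along each cluster, by distance in kb from its first base, with the signal percentile of replicate 1 drawn upward and of replicate 2 downward; pale lines are peaks not shared, ticks mark the 53 genes, and bold names have an open start. The keratin-associated protein stretch (grey) has no peak given to a keratin, and the tallest line of each replicate in the type II cluster stands between Krt78 and Krt8.

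Motifs were searched on both strands of the 150 bp, and a match is a description of the letters. The motifs were AP-1 (TGANTCA), AP-2 (GCCNNNGGC), KLF (GGGNGTGG), C/EBP (TTGCNNAA), GRHL (AACCNGTT), TEAD (GGAATG), RUNX (TGTGGT), TCF/LEF (CTTTGNT), the TATA box (TATAAA) and a p53 family site. TEAD was the most frequent at keratins, in 15 of the 82 shared distal peaks (18.3%, beside 13.3% of all shared distal peaks). It was also at the starts of Krt7 and Krt17, 2 of the 10 shared TSS peaks (20%, beside 7.04% of all shared TSS peaks). The p53 family site, of which p63 is a reader in epidermis, was in 6 (7.32%, beside 4.85%), given to Krt1, Krt25, Krt32, Krt71, Krt72 and Krt84, but in the central 100 bp it was in 3 (3.66%, beside 3.2%). KLF was in 7 (8.54%, beside 5.63%), AP-1 in 4 (4.88%, beside 6.52%), AP-2 in 4 (4.88%, beside 6.17%) and GRHL in 0 (beside 1.64%). RUNX and TCF/LEF were in 8 each (9.76%, beside 12.6% and 11.6%), C/EBP in 2 (2.44%, beside 7.2%) and the TATA box in 6 (7.32%, beside 7.96%). Among the 10 shared TSS peaks, AP-2 was at Krt7 and Krt80 (20%, beside 15.3% of all shared TSS peaks). At 1 peak each (10%) were AP-1 at Krt86 (beside 2.71%), C/EBP and TCF/LEF at Krt10 (beside 3.93% and 6.59%) and the TATA box at Krt17 (beside 2.68%). KLF, RUNX, GRHL and the p53 family site were in 0 of the 10 (beside 12.6%, 5.83%, 0.937% and 2.45%). In the central 100 bp AP-2, AP-1, C/EBP, TCF/LEF and the TATA box were each in 0 of the 10. The numbers of keratin peaks are small, and no difference from all peaks was tested.

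Genes linked to keratins ranged widely around the 65.1% of all genes with an open start, and no difference was tested. Of 16 regulators of keratin genes, 14 had an open start, among them Trp63, Klf4, Grhl3, Tfap2a and Hoxc13, and Ovol1 and Foxn1 did not. Of 11 genes of desmosomes and keratin linkers 8 were open (72.7%, 95% Wilson interval 43.4% to 90.3%), a share near that of all genes, among them Dsp, Jup and Plec. Of 12 genes of the cornified envelope 3 were open (25%, interval 8.89% to 53.2%), namely Tgm1, Casp14 and Crnn. Other intermediate filament genes were open in 13 of 15, Vim and Lmna included. None of the 57 keratin-associated protein genes had an open start, with peaks at 4 in replicate 1 and 1 in replicate 2. Their median CpG content was 0.17, below the 0.35 of the keratins. The lists differ in this content. Under 0.35, where 13.5% of all genes were open, lie 10 of the 12 cornified envelope genes and 53 of the 57 keratin-associated protein genes. Over 0.6, where 94.6% of all genes were open, lie 13 of the 16 regulators, 8 of the 11 linkers and 12 of the 15 other filament genes.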

How the data were processed

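DNase-seq was done on embryonic mouse limb, 1 group of 2 libraries at day 14.5. The peak signal deposited by the authors is a whole number of unstated scaling, so it was used only within a library, as a percentile. Hotspots carry the authors' −log10 q-values, up to a ceiling of 100. The build is mm10 per the labels, and chromosome lengths match. No aligner or caller is named in these sources. Peaks were called per library. Read depth is unknown, and intervals cover the sampling of genes only, except that for the share of TSS peaks that are shared, which covers peaks.

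Peaks on the autosomes, X and Y were assigned to GENCODE M21 starts with Python 3.11.15, numpy 2.4.6 and pandas 2.3.3, and the functions were tested on simulated regions. Keratin classes and gene lists rest on symbols. Members and lists were chosen with earlier results of these data known, and no test was made on them. Named are all simple, basal and suprabasal keratins, other members with a TSS peak in either replicate or 3 or more shared distal peaks, and the 5 strongest distal peaks; the remaining members are given by name or range. Besides the strongest shared peak per class, the printed sequences of Krt5, Krt17, Krt10 and Krt1 were chosen after their values were seen. Alternatives were other overlaps, windows, distances, peak sets, starts and each replicate alone. Shares of genes are given with Wilson intervals at 95%.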

Additional observations from a re-analysis of the deposited data

How the results depend on the processing

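Of 81 alternative values for counts of open keratins, peaks and cluster peaks, 55 stayed within 1.5 times the reported value. With the 50000 peaks of highest signal in each library, 3 keratins had an open start, with 4 shared TSS peaks, 20 shared distal peaks, and 10 and 13 shared peaks in the type I and type II clusters. The same setting gave 0 simple, 0 basal, 1 suprabasal and 1 hair shaft open keratin, and 1 outside the named classes, beside 55.3% of all genes. With a TSS window of 250 bp there were 6 shared TSS peaks, with 1 suprabasal and 0 hair shaft keratins open. Hair shaft keratins numbered 2 with a window of 1000 bp and 2 with an overlap of at least 1 bp. With outermost starts only, 0 suprabasal keratins were open. Using each replicate alone, that is leaving the other out, gave 14 to 14 keratins with a TSS peak, 20 to 20 TSS peaks, 121 to 125 distal peaks, 54 to 66 and 90 to 92 peaks in the type I and type II clusters, 2 to 2 simple keratins and 2 to 3 hair shaft keratins. The share of all genes with an open start ran from 55.3% to 69.4% over these settings. Of the values for single classes, CpG ranges, word lengths and motifs, 52 of 65 stayed within 1.5 times. Shared distal peaks fell from 82 to 55 when starts of every gene type were counted. Unknown read depth limits what a missing peak means. No paired analysis was possible because the labels give a single group.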

Other observations

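Some distal peaks of keratins lie inside coding exons, over 1 kb from every protein-coding start. The one in Krt86 lies 791 bp from the start of the lincRNA Gm49501. Over chromosomes 11 and 15, 8 of the 82 shared distal keratin peaks have their middle base in a coding exon (9.76%), beside 206 of all 8257 shared distal peaks on these chromosomes (2.49%). They lie in exons of Krt20, Krt40, Krt7, Krt88, Krt86, Krt90, Krt77 and Krt79. The strongest, in an exon of Krt90, had signals of 72 and 49 in the respective replicates, and the weakest, in Krt79, had 34 and 16. The peak in Krt77, a suprabasal keratin, is 72.7% GC with 21 CpGs, close to the 74% and 74.7% of the exon peaks of Krt10 and Krt1. Of the 95 shared keratin peaks, 4 exceed 70% GC (4.21%), these 3 and the intergenic peak upstream of Krt78, beside 5.42% of all shared peaks. The pools differ in kind, as most of the keratin peaks are distal. Among shared distal peaks the share was 2.44% for keratins, beside 0.834%, and among shared TSS peaks 20%, beside 25.2%. These counts were made after the peaks were seen and were not tested.

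The core of the CTCF site was added to the motifs after the sequence of the Krt8 peak was seen. It was found in 10 of the 82 shared distal keratin peaks (12.2%), a share near the 12.4% of all shared distal peaks. Those peaks were given to Krt24, Krt25, Krt28 (2 peaks), Krt12, Krt19, Krt42, Krt7, Krt72 and Krt8.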
